A study of Bos taurus with 17 samples.

Results

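Heat shock proteins and molecular chaperones were described across 17 pools of bovine morulae. They are the 87 of 17167 genes in the deposited table whose symbol begins with HSP or DNAJ, or is TCP1, CCT2 to CCT8, BAG1 to BAG6, HSF1 or HSF2. Of the pools, 8 are labelled as treated with recombinant WNT5A, a secreted WNT ligand, and 9 as control, and what controls received in its place is not in the labels. The study asked how WNT5A acts on the competence of the embryo to develop. Each pool held 10 embryos produced in vitro, and the dose, the culture time and the breed are not in the labels. Whether the pools were fertilised on separate occasions is not in the labels either, and p-values therefore measure only the spread among these pools, which may be technical. The rule goes by symbol, so it also takes genes whose products are not chaperones themselves, among them HSPG2, which encodes the basement membrane proteoglycan perlecan, HSPBAP1, which encodes a protein that binds small heat shock proteins, and the transcription factors HSF1 and HSF2.

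Chaperones bind unfolded or aggregating proteins and release them for another attempt at folding. HSP70 proteins do this in cycles of ATP hydrolysis that J proteins (the DNAJ genes) start and nucleotide exchange factors (HSP110 and BAG proteins) end, while HSP90 matures signalling proteins and the barrel-shaped chaperonins enclose whole substrates, actin and tubulin among them. HSF1 is the transcription factor that raises many of these genes after heat or other proteotoxic stress, and in the mouse, inducible HSP70 genes are among the earliest transcribed from the embryonic genome. Chaperone messenger RNAs are also used in the field as readouts of stress in cultured embryos.

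The values are RPKM, which scale reads by exon length and library size, so levels can be set side by side between genes as far as the annotated exon lengths hold. Pools held 34.0 to 200.1 M (mega) reads, as recovered from the RPKM values, and 3 reads on a gene of 1 kilobase correspond to 0.0155 to 0.0841 RPKM. WNT5A libraries 4, 12 and 14 had 34.0 to 52.4 M reads, against 140 to 200.1 M in the other 5 WNT5A libraries and 125 to 162 M in controls. An uncharacterised gene, ENSBTAG00000051364, held 3.51% to 5.64% of the reads of these 3, against at most 0.00381% in every other library. Control libraries 2, 3 and 6 had reads on 10055 to 11268 genes, against 13587 to 15430 in the other 6 controls. Log2 differences that these libraries move are given with and without them. The 7 morula markers POU5F1, NANOG, CDX2, GATA3, KRT18, KRT8 and CDH1 summed to 3121 to 6330 RPKM in WNT5A pools and 2918 to 4348 RPKM in controls. The 7 measured cumulus and granulosa cell markers (TNFAIP6, CYP19A1, FSHR, INHBA, VCAN, LUM and DCN) summed to 0.829 to 4.93 RPKM in WNT5A pools and to 0 to 13.4 RPKM in controls, and the measured blood markers HBA and AIF1 to 3.47 to 7.82 RPKM in WNT5A pools and 3.60 to 19.9 RPKM in controls. In such bulk pools fewer cells of a type and less RNA per cell cannot be told apart.

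Chaperone genes were abundant in the morula. Together the 87 genes took 1.58% to 1.96% of reads in WNT5A pools and 1.56% to 1.95% in controls. Of these, 54 averaged at least 10 RPKM over the 17 libraries, which is 62.1% of them against 34.0% of all genes in the table, and 18 averaged at least 100 RPKM (20.7% against 7.28% of all genes). The median of their mean levels was 25.6 RPKM, against 3.57 RPKM for all genes. For the test, 79 of the 87 had at least 0.5 RPKM in at least 8 libraries, which is 90.8% against 72.3% of all genes. The 8 that were not tested were the small heat shock genes HSPB2 and HSPB8, the J protein genes DNAJB7, DNAJB8 and DNAJB13, and HSPA1L, HSPA4L and HSPA12B. None of the 8 averaged above 0.878 RPKM over all libraries. Reads were found in all 17 libraries for 63 members, and in 79 to 87 members per WNT5A library against 68 to 84 per control library. Control libraries 2, 3 and 6 had the fewest, at 68 to 73.

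No member passed the test for an effect of WNT5A. In limma on log2(RPKM + 1), with p adjusted over 12415 genes, 0 of 79 members passed 0.05 and the smallest adjusted p was 0.673, where 1 gene, 0.00805% of all tested, passed. At an unadjusted p under 0.05 there were 7 members, 5 with higher and 2 with lower values in WNT5A pools, where 5.73% of all tested genes were higher and 1.62% lower at that level (7.35% together). This count of 7 in 79 is close to that background. The fitted value was above 0 for 46 of 79 members, against 62.3% of all tested genes, and after quantile normalization for 52 of 79, against 55.0%. The median log2 difference of members was 0.062, beside 0.11 for all tested genes. No member had groups that did not overlap, where 0.0161% of all tested genes did. By the authors' deposited table, none of the 87 members (0) had an FDR under 0.05 (1.01% of all genes did), and 5 had a p under 0.05 (8.19% of all genes), namely HSPB1, HSP90B1, HSPA4, HSPA4L and DNAJB8.

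**Figure D1:**
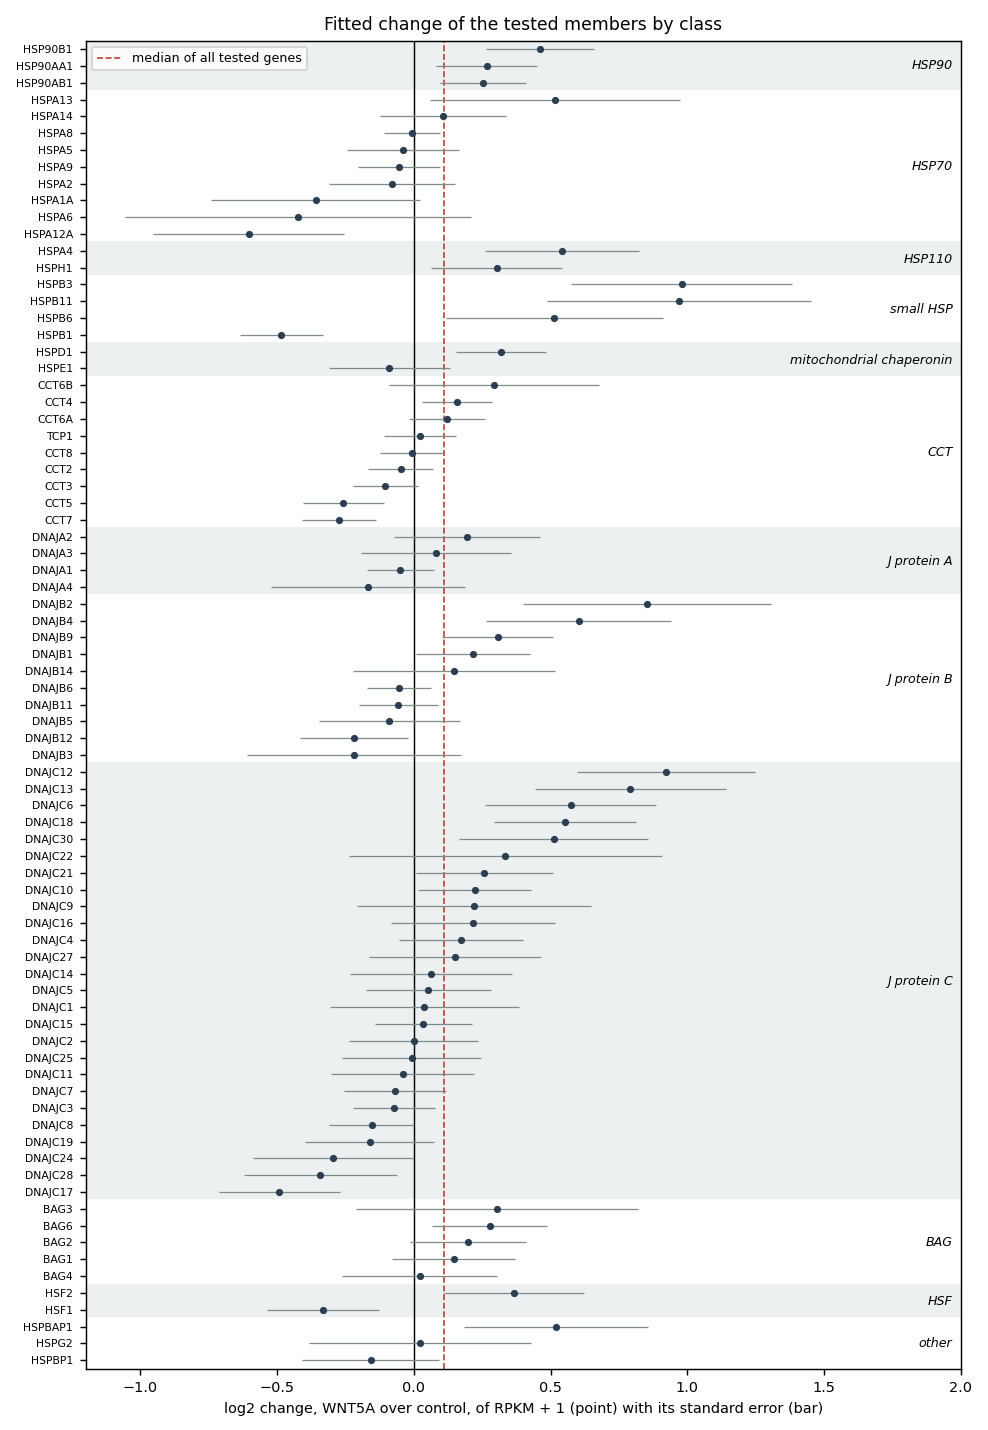
Log2 difference of RPKM + 1, WNT5A over control, for each of the 79 tested members, with its standard error as a bar, grouped by class. Values run from -0.60 for HSPA12A to 0.98 for HSPB3, and the dashed line marks the median of all tested genes, 0.11.

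HSF1 and HSF2 are the transcription factors of the family. HSF1 had 41.0 RPKM at its lowest, 80.0 at the median and 97.8 at its highest in WNT5A pools, against 55.8, 90.9 and 113 RPKM in controls. The 3 lowest values were those of WNT5A libraries 4, 12 and 14, at 41.0 to 49.2 RPKM, while the other 5 WNT5A libraries, at 76.1 to 97.8 RPKM, lay inside the range of controls. The log2 difference of HSF1 was -0.33 ± 0.20 (SE, limma adjusted p = 0.717), and 0.03 without those 3 libraries. HSF2, a related factor known for roles in gametogenesis and development, was lower in level than HSF1 in all 17 libraries. It averaged 11.4 ± 4.45 RPKM over the 8 WNT5A pools and 8.49 ± 2.63 over the 9 controls (SD), with a log2 difference of 0.37 ± 0.26 (SE, limma adjusted p = 0.733), and 0.11 with WNT5A libraries 4, 12 and 14 and controls 2, 3 and 6 left out.

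HSPB1, which encodes the small heat shock protein HSP27 that binds unfolding proteins and actin, had the highest mean of the members over all 17 libraries and the smallest p, although in WNT5A pools its mean was below that of HSPA8. It ranked 37th of 17167 genes by mean RPKM over all libraries. Its levels were 739 RPKM at the lowest, 1091 at the median and 1296 at the highest in WNT5A pools, against 1135, 1454 and 2094 RPKM in controls. All 8 WNT5A pools lay below the median of controls, and 4 of them lay within the range of controls. The means were 1080 ± 195 RPKM over the 8 WNT5A pools and 1523 ± 346 over the 9 controls (SD). The log2 difference was -0.48 ± 0.15 (SE), with an unadjusted p of 0.00415 that did not pass (limma adjusted p = 0.673). Of the 12 members with the smallest p, HSPB1 was the one whose value moved least over 3 ways of leaving libraries out, at -0.41 without WNT5A libraries 4, 12 and 14, -0.54 without control libraries 2, 3 and 6 and -0.47 without all 6. It moved further in other refits, to -0.356 after quantile normalization and -0.360 with the replicate number as a block. In the authors' deposited table HSPB1 had a log2 fold change of -0.48 at an FDR of 0.161.

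The other small heat shock genes were low, at a few RPKM. HSPB3, known from muscle, had 1.39 RPKM at the lowest, 3.38 at the median and 8.02 at the highest in WNT5A pools, against 0, 1.74 and 5.02 RPKM in controls. The 3 controls without a read were libraries 2, 3 and 6. Its log2 difference of 0.98 ± 0.40 (SE, limma adjusted p = 0.673) was 0.38 without them. HSPB11, which encodes an intraflagellar transport protein rather than a classical chaperone, had 0.282, 3.73 and 19.6 RPKM (lowest, median and highest) in WNT5A pools and 0, 2.04 and 4.64 in controls. The same 3 controls had no read of HSPB11, and WNT5A library 4 alone held 19.6 RPKM. Its log2 difference of 0.97 ± 0.48 (SE, limma adjusted p = 0.676) was 0.32 without control libraries 2, 3 and 6. HSPB6 averaged 1.93 ± 0.991 RPKM over the 8 WNT5A pools and 1.37 ± 1.62 over the 9 controls (SD).

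Among HSP70 genes, the constitutive cytosolic HSPA8 dominated and was nearly constant. It had 1019 RPKM at the lowest, 1172 at the median and 1388 at the highest in WNT5A pools, against 1074, 1208 and 1330 RPKM in controls. Its coefficient of variation over the 17 libraries was 8.46%, the second lowest of the 1249 genes with a mean of at least 100 RPKM, whose median was 26.5%. The log2 difference of HSPA8 was -0.01 ± 0.10 (SE, limma adjusted p = 0.990), and 0.09 after quantile normalization. HSPB1 and HSPA8 did not differ in order beyond their spread, with HSPB1 above HSPA8 in 3 of 8 WNT5A pools and 6 of 9 controls. HSPA9, the mitochondrial HSP70 that drives protein import, averaged 236 ± 40.8 RPKM over the 8 WNT5A pools and 247 ± 52.6 over the 9 controls (SD). HSPA5, the HSP70 of the endoplasmic reticulum and its main stress marker, averaged 168 ± 47.7 RPKM over the 8 WNT5A pools and 173 ± 50.5 over the 9 controls (SD), so that its means differed by less than the spread in either group.

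HSPA1A, the classical heat-inducible HSP70, was the most variable of the abundant HSP70 genes. It had 12.2 RPKM at the lowest, 29.2 at the median and 79.4 at the highest in WNT5A pools, against 15.5, 50.9 and 79.6 RPKM in controls. High and low pools occurred in both groups, with 79.4 RPKM in WNT5A library 1 and 12.2 in WNT5A library 12, and with 79.6 in control library 5 and 15.5 in control library 2. HSPA8 was 17.5 to 87.1 times as high as HSPA1A in WNT5A pools and 13.5 to 74.5 times as high in controls. The log2 difference of HSPA1A was -0.36 ± 0.38 (SE, limma adjusted p = 0.800). It became 0.11 without WNT5A libraries 4, 12 and 14, where HSPA1A averaged 17.9 RPKM against 46.5 in the other 5. HSPA1A is annotated as 1 exon block, and near-identical copies of HSP70 genes can share reads, so its level is uncertain. Its divergent neighbour HSPA1L lay 434 bases away on the other strand and was detected in 4 of 8 pools with WNT5A against 2 of 9 controls.

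The remaining HSP70 genes were lower. HSPA2, known from the testis, averaged 28.2 ± 9.79 RPKM over the 8 WNT5A pools and 29.5 ± 9.52 over the 9 controls (SD). HSPA14, which with the J protein DNAJC2 forms a ribosome-bound pair, averaged 12.4 ± 1.96 RPKM over the 8 WNT5A pools and 11.9 ± 3.82 over the 9 controls (SD). HSPA6, an inducible HSP70 gene in human cells, had 0.282, 2.40 and 6.90 RPKM (lowest, median and highest) in WNT5A pools and 0, 5.35 and 43.3 RPKM in controls, and the highest value was that of control library 2. Of the 9 tested HSP70 genes 7 had a fitted value below 0, but 4 of 9 after quantile normalization, and none had an unadjusted p under 0.05. The count below 0 was 3 of 9 without WNT5A libraries 4, 12 and 14 and 8 of 9 without control libraries 2, 3 and 6. It was 5 of 9 without both sets. Of all tested genes, 62.3% were above 0 in the main fit and 55.0% after quantile normalization. That share was 65.5% without WNT5A libraries 4, 12 and 14, 50.7% without control libraries 2, 3 and 6 and 55.7% without both sets.

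**Figure D2:**
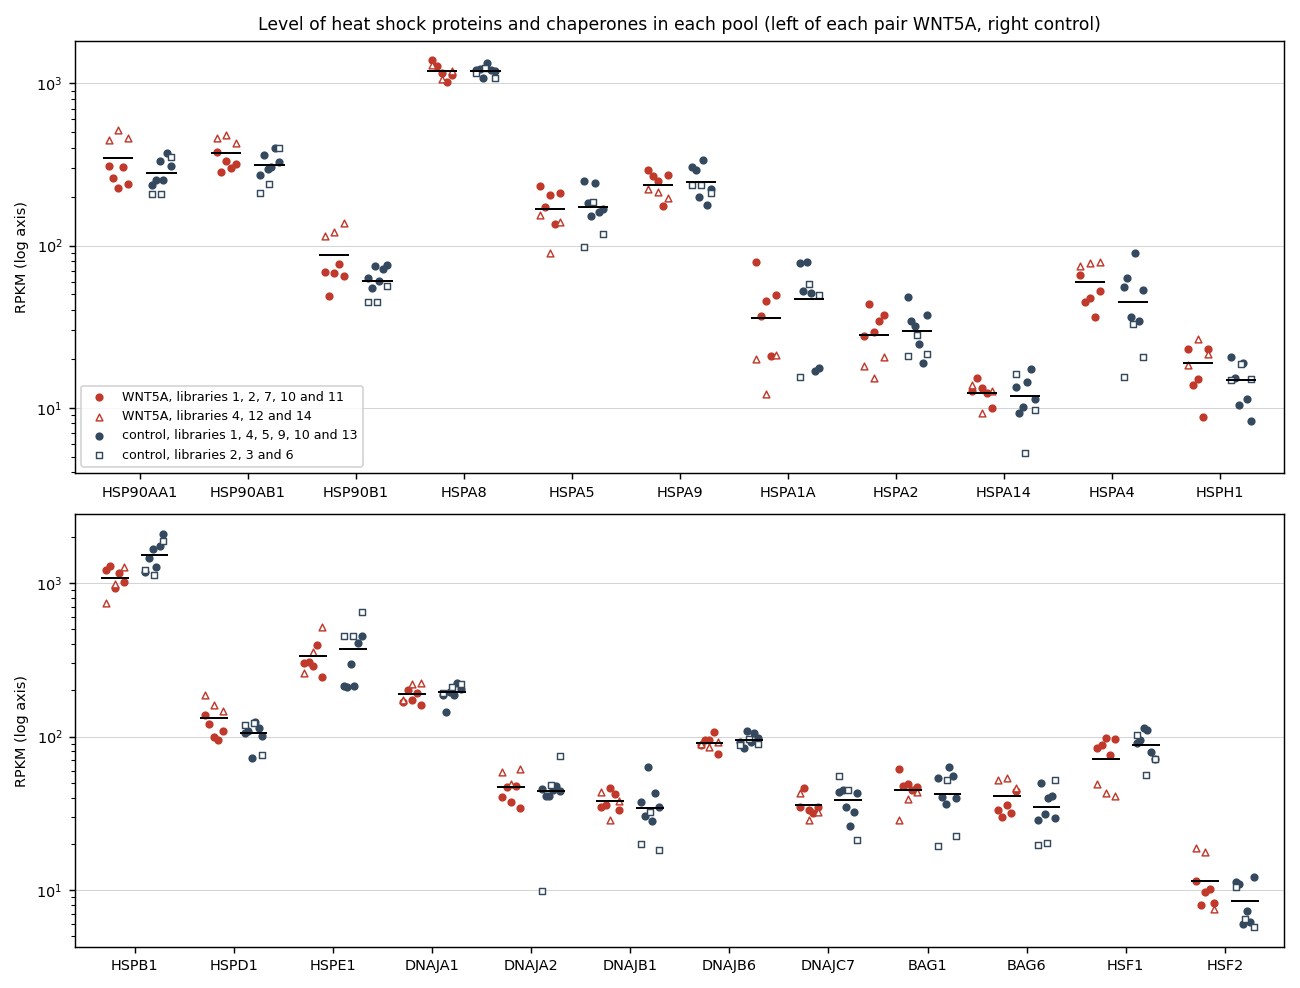
RPKM on a log axis of 23 members in each pool, WNT5A left and control right in each pair, with the group mean as a black line. Open symbols mark WNT5A libraries 4, 12 and 14 (triangles) and control libraries 2, 3 and 6 (squares). HSPA8 and HSPB1 are the highest, and HSPA1A spreads from 12.2 to 79.6 RPKM.

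HSP110 proteins exchange nucleotide on HSP70. HSPA4, the more abundant of the tested HSP110 genes, had 36.5 RPKM at the lowest, 59.4 at the median and 78.9 at the highest in WNT5A pools, against 15.5, 36.4 and 90.6 RPKM in controls. All 8 WNT5A pools lay above the median of controls, and the 3 lowest of all 17 libraries were control libraries 2, 3 and 6. The log2 difference was 0.54 ± 0.28 (SE, limma adjusted p = 0.681). It was 0.13 without control libraries 2, 3 and 6 and -0.11 without these and WNT5A libraries 4, 12 and 14. HSPH1 averaged 18.8 ± 5.84 RPKM over the 8 WNT5A pools and 14.8 ± 4.19 over the 9 controls (SD).

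All 3 HSP90 genes had higher means in WNT5A pools, and in each of them WNT5A libraries 4, 12 and 14 stood above every other library. HSP90AA1, the inducible cytosolic form, had 226 RPKM at the lowest, 307 at the median and 516 at the highest in WNT5A pools, against 208, 253 and 374 RPKM in controls. WNT5A libraries 4, 12 and 14 held 451 to 516 RPKM of HSP90AA1, and the other 5 held 226 to 311 RPKM. HSP90AB1, the constitutive cytosolic form, had 283, 355 and 483 RPKM (lowest, median and highest) in WNT5A pools and 210, 307 and 402 RPKM in controls, with 428 to 483 RPKM in WNT5A libraries 4, 12 and 14. HSP90B1, the form of the endoplasmic reticulum also called GRP94, had 49.1, 72.8 and 139 RPKM in WNT5A pools and 44.9, 60.7 and 76.0 RPKM in controls. WNT5A libraries 4, 12 and 14 held 114 to 139 RPKM of HSP90B1, and the other 5, at 49.1 to 76.8 RPKM, overlapped the controls.

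The log2 differences were 0.27 ± 0.18 for HSP90AA1, 0.25 ± 0.16 for HSP90AB1 and 0.46 ± 0.20 for HSP90B1 (SE, limma adjusted p = 0.732, 0.717 and 0.673). Without WNT5A libraries 4, 12 and 14 they were -0.05, 0.06 and 0.11. Without these and control libraries 2, 3 and 6 they were -0.12, -0.02 and -0.04. The sum of the 3 genes was 1026 to 1120 RPKM in WNT5A libraries 4, 12 and 14, 592 to 759 in the other 5 and 463 to 845 in controls. The cytosolic forms were close to each other in RPKM, with HSP90AA1 above HSP90AB1 in 3 of 8 WNT5A pools and 1 of 9 controls. RPKM divides by the annotated exon length, 6035 bases for HSP90AA1 and 2581 for HSP90AB1. Their closeness therefore depends on that annotation.

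The mitochondrial chaperonin is built from HSPD1, which forms the barrel, and HSPE1, which forms its lid. HSPD1 had 95.5 RPKM at the lowest, 130 at the median and 187 at the highest in WNT5A pools, against 72.0, 109 and 124 RPKM in controls. WNT5A libraries 4, 12 and 14, at 146 to 187 RPKM, were above all other libraries. Its log2 difference was 0.32 ± 0.16 (SE, limma adjusted p = 0.676), and 0.11 without those 3 libraries. HSPE1 had 245, 304 and 522 RPKM in WNT5A pools and 211, 409 and 650 RPKM in controls. Control libraries 2, 3 and 6 had the 3 highest control values, by a margin under 1 RPKM, and of the tested members this was so of HSPE1 alone, where 2.45% of all tested genes were. The log2 difference of HSPE1 was -0.09 ± 0.22 (SE, limma adjusted p = 0.921), which was 0.08 after quantile normalization and 0.19 without those 3 controls.

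HSPE1 was above HSPD1 per length in all 17 libraries. The ratio of HSPE1 to HSPD1 was 1.40 to 4.12 in WNT5A pools, with a median of 2.39, and 1.72 to 8.55 in controls, with a median of 3.71. The highest ratio was that of control library 6 and the lowest that of WNT5A library 4. These genes are head-to-head neighbours on opposite strands, and their annotated spans in the deposited table overlapped by 959 bases, so that reads there may be shared, since no source used here gives the strand setting of the counting.

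The cytosolic chaperonin CCT, also called TRiC, is a double ring of 8 different subunits that folds actin and tubulin. Its 8 subunit genes were not at equal levels per length. CCT5 averaged 634 RPKM over the 17 libraries and was above every other subunit in each of them, followed by CCT3 at 417, CCT7 at 338, CCT8 at 303, TCP1 at 293, CCT4 at 231, CCT2 at 213 and CCT6A at 146 RPKM. Neighbours from CCT8 to TCP1 did not differ in order beyond their spread, since CCT8 was above TCP1 in 5 of 8 WNT5A pools and 5 of 9 controls. CCT4 was above CCT2 in 8 of 8 WNT5A pools and 6 of 9 controls, and CCT3 above CCT7 in 8 of 8 WNT5A pools and 7 of 9 controls. CCT6B, a paralog of CCT6A, averaged 4.23 RPKM, and CCT6A was at least 19.9 times as high where CCT6B had reads. The 8 subunits varied little, with coefficients of variation of 10.5% for CCT8 to 19.1% for CCT5, beside the median of 26.5% for all genes with a mean of at least 100 RPKM.

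CCT7 and CCT5 had the smallest p of the subunits. CCT7 had 215 RPKM at the lowest, 318 at the median and 388 at the highest in WNT5A pools, against 308, 376 and 413 RPKM in controls. CCT5 had 372, 603 and 762 RPKM in WNT5A pools and 588, 663 and 798 RPKM in controls. For both genes the 3 lowest values were those of WNT5A libraries 4, 12 and 14, at 215 to 269 RPKM for CCT7 and 372 to 473 RPKM for CCT5. Their log2 differences were -0.27 ± 0.13 for CCT7 and -0.26 ± 0.15 for CCT5 (SE, limma adjusted p = 0.676 and 0.707). Without those 3 libraries they were -0.08 for CCT7 and close to 0 for CCT5.

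CCT4 stood the other way in the same libraries. It had 203 RPKM at the lowest, 227 at the median and 325 at the highest in WNT5A pools, against 182, 211 and 252 RPKM in controls, and WNT5A libraries 4, 12 and 14 held the 3 highest values, 269 to 325 RPKM. Its log2 difference was 0.16 ± 0.13 (SE, limma adjusted p = 0.753), and 0.0026 without those 3 libraries. The ratio of CCT5 to CCT4 was 1.69, 1.14 and 1.58 in WNT5A libraries 4, 12 and 14, against 2.69 to 3.42 in the other 5 and 2.33 to 3.84 in controls. The ratio does not depend on how libraries are scaled to each other. Its separation is no further support, since CCT5 was lowest and CCT4 highest in these 3 libraries, which fixes a low ratio there. The sum over the 8 subunits was 2131 to 2869 RPKM in WNT5A pools and 2472 to 2841 RPKM in controls. Within WNT5A pools it was 2131 to 2456 RPKM in libraries 4, 12 and 14 and 2334 to 2869 RPKM in the other 5. Of the 8 subunits 5 had a fitted value below 0 and 3 above, where 62.3% of all tested genes were above. After quantile normalization 2 were below and 6 above, where 55.0% of all tested genes were above.

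**Figure D3:**
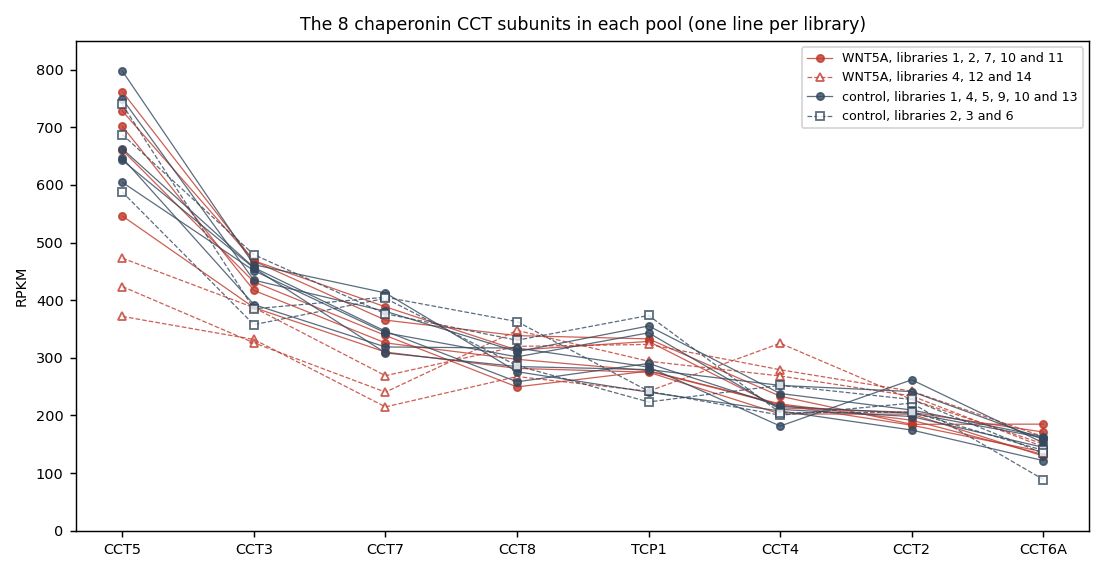
RPKM of the 8 CCT subunit genes in each pool, 1 line per library, ordered by mean level. Dashed red lines with triangles are WNT5A libraries 4, 12 and 14, which lie lowest at CCT5 (372 to 473 RPKM) and CCT7 (215 to 269 RPKM) and highest at CCT4 (269 to 325 RPKM).

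Set apart in this way were 11 of the 79 tested members. WNT5A libraries 4, 12 and 14 were all above the other 14 libraries for 7 members (4.18% of all tested genes were) and all below for 4 (2.67% of all tested genes). The 7 were HSP90AA1, HSP90AB1, HSP90B1, HSPD1, CCT4, DNAJB2 and DNAJC6, and the 4 were HSF1, CCT5, CCT7 and HSPBP1. After quantile normalization the 7 became 6 (4.33% of all tested genes) and the 4 became 1 (2.01%), and HSP90AB1, DNAJC6, CCT5, CCT7 and HSPBP1 were then no longer set apart, while DNAJC2, a ribosome-bound J protein, newly was. Within WNT5A pools alone, the same 3 libraries were above the other 5 for 15 members (11.1% of all tested genes) and below them for 12 (13.9%). These libraries also had the fewest reads of all 17 and the high share of ENSBTAG00000051364 given above, whose part in these levels was not tested.

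HSPBP1, a nucleotide exchange factor that restrains HSP70, had 28.6 to 35.4 RPKM in WNT5A libraries 4, 12 and 14, 59.3 to 91.6 in the other 5 and 36.1 to 94.9 in controls. Its log2 difference was -0.16 ± 0.25 (SE, limma adjusted p = 0.871), and 0.29 without those 3 libraries. DNAJB2, a J protein that hands clients to the proteasome, had 5.12 to 10.5 RPKM in the same 3 libraries, 0.0849 to 1.36 in the other 5 and 0 to 3.10 in controls. Its log2 difference of 0.85 ± 0.45 (SE, limma adjusted p = 0.686) was 0.01 without the 3 libraries. DNAJC6, or auxilin, which helps HSPA8 to strip clathrin from vesicles, had 2.67 to 4.33 RPKM there, 0.604 to 0.776 in the other 5 and 0 to 2.38 in controls, with a log2 difference of 0.57 ± 0.31 (SE, limma adjusted p = 0.690) that was 0.07 without them.

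**Figure D4:**
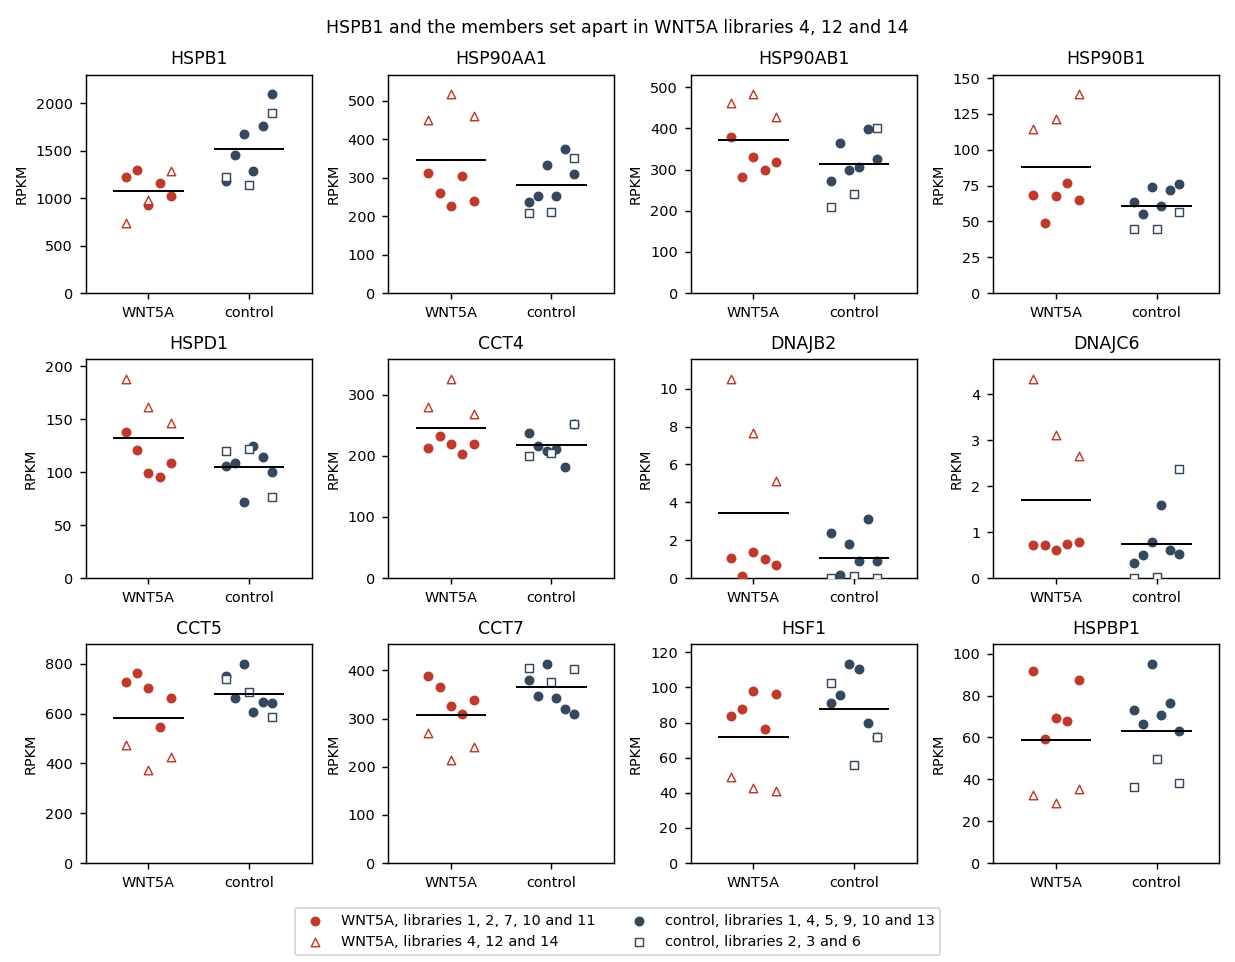
RPKM of HSPB1 and of the 11 members set apart in WNT5A libraries 4, 12 and 14, WNT5A left and control right, on axes that start at 0, with the group mean as a black line. Open triangles mark these 3 libraries, which hold the highest values for the 3 HSP90 genes and the lowest for HSF1 (41.0 to 49.2 RPKM), whereas for HSPB1 they are mixed with the other WNT5A pools.

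J proteins start the HSP70 cycle, and 40 of the 43 in the table were tested. Of these, 23 had a fitted value above 0 and 17 below, with a median of 0.058. Of all tested genes 62.3% were above 0, with a median of 0.11. The most abundant were DNAJA1, a general cytosolic partner of HSPA8, at 189 ± 23.7 RPKM over the 8 WNT5A pools and 196 ± 23.4 over the 9 controls (SD), and DNAJC15, a partner of HSPA9 at the inner mitochondrial membrane, at 123 ± 19.9 RPKM with WNT5A and 123 ± 38.7 RPKM in controls. DNAJB6, which suppresses aggregation, stood at 91.3 ± 8.55 RPKM over the 8 WNT5A pools and 94.8 ± 8.08 over the 9 controls (SD). DNAJB1, a target of HSF1 that also restrains it, had 28.8, 36.9 and 45.9 RPKM (lowest, median and highest) in WNT5A pools and 18.1, 32.1 and 62.9 RPKM in controls. DNAJA2, a close relative of DNAJA1, had 34.1, 47.3 and 61.4 RPKM in WNT5A pools and 9.90, 44.9 and 74.2 RPKM in controls. DNAJC7, which passes clients between HSP70 and HSP90, had 28.6, 34.0 and 46.3 RPKM in WNT5A pools and 21.3, 42.9 and 55.2 RPKM in controls. None of these 6 genes had groups whose ranges were separate.

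Of the 40 J protein genes 4 had an unadjusted p under 0.05, where 7.35% of all tested genes did, and none of the 4 passed after adjustment. DNAJC12, a partner of the aromatic amino acid hydroxylases, had 0.583 RPKM at the lowest, 1.45 at the median and 4.79 at the highest in WNT5A pools, against 0, 0 and 1.90 RPKM in controls. Reads were found in 8 of 8 pools with WNT5A against 4 of 9 controls, and WNT5A libraries 4 and 14 held the highest values. The log2 difference was 0.92 ± 0.32 (SE, limma adjusted p = 0.673), and 0.61 without WNT5A libraries 4, 12 and 14. DNAJC13, which acts at endosomes, averaged 3.92 ± 1.70 RPKM over the 8 WNT5A pools and 2.09 ± 1.56 over the 9 controls (SD). Its log2 difference of 0.79 ± 0.35 (SE, limma adjusted p = 0.676) was 0.03 with WNT5A libraries 4, 12 and 14 and controls 2, 3 and 6 left out.

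DNAJC18 averaged 2.09 ± 0.433 RPKM over the 8 WNT5A pools and 1.21 ± 0.764 over the 9 controls (SD), and all 8 WNT5A pools lay above the median of controls. Its log2 difference was 0.55 ± 0.26 (SE, limma adjusted p = 0.676), and 0.35 without those 6 libraries. DNAJC17, a nuclear J protein linked to splicing, was the one of the 4 with lower values. It had 26.1, 45.8 and 63.3 RPKM (lowest, median and highest) in WNT5A pools and 32.6, 59.4 and 116 RPKM in controls, with a log2 difference of -0.49 ± 0.22 (SE, limma adjusted p = 0.676) that was -0.19 without the 6 libraries.

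None of the J protein partners of HSPA5 described here, DNAJB9, DNAJB11 and DNAJC3, had an unadjusted p under 0.05. DNAJB9 averaged 28.9 ± 10.1 RPKM over the 8 WNT5A pools and 22.6 ± 4.78 over the 9 controls (SD), DNAJB11 averaged 59.2 ± 6.44 RPKM with WNT5A and 62.3 ± 12.6 in controls, and DNAJC3 averaged 63.3 ± 7.92 RPKM with WNT5A and 67.6 ± 15.5 in controls. In mitochondria, DNAJA3 averaged 70.1 ± 19.8 RPKM over the 8 WNT5A pools and 69.8 ± 25.5 over the 9 controls (SD), and DNAJC19, part of the import motor, 78.6 ± 23.5 RPKM with WNT5A and 92.6 ± 43.5 in controls. DNAJA3 was lower in WNT5A libraries 4, 12 and 14, at 38.2 to 60.0 RPKM, than in the other 5, at 68.5 to 92.6 RPKM. Control libraries 2, 3 and 6 averaged 41.6 RPKM of DNAJA3, and the other 6 controls 84.0 RPKM.

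BAG proteins release substrates from HSP70, and 5 were in the table and tested. BAG2, an inhibitor of the ubiquitin ligase partner of HSP70, averaged 48.4 ± 4.41 RPKM over the 8 WNT5A pools and 45.2 ± 19.0 over the 9 controls (SD). BAG1 had 28.4, 45.8 and 61.2 RPKM (lowest, median and highest) in WNT5A pools and 19.2, 40.3 and 63.7 RPKM in controls. BAG6, which guards membrane proteins on their way to the endoplasmic reticulum, averaged 40.9 ± 9.38 RPKM over the 8 WNT5A pools and 34.5 ± 11.6 over the 9 controls (SD). Its log2 difference was 0.28 ± 0.21 (SE, limma adjusted p = 0.743), and -0.05 with WNT5A libraries 4, 12 and 14 and controls 2, 3 and 6 left out. BAG3, an HSF1 target in autophagy, averaged 15.4 ± 7.70 RPKM over the 8 WNT5A pools and 15.1 ± 8.84 over the 9 controls (SD), with no read in control library 2. BAG4 averaged 9.35 ± 1.07 RPKM over the 8 WNT5A pools and 10.2 ± 5.24 over the 9 controls (SD). All 5 had a fitted value above 0 (62.3% of all tested genes did), and 4 after quantile normalization (55.0% of all tested genes). Without control libraries 2, 3 and 6 this was so of 3 of the 5, where 50.7% of all tested genes were above 0.

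Control libraries 2, 3 and 6 were all below the other 6 controls for 8 of 79 members, close to the background of 9.38% of all tested genes. The 8 were HSPA4, BAG3, DNAJA3, HSPBP1, DNAJB2, DNAJC22, HSPB3 and HSPB11. BAG3 averaged 4.73 RPKM in these 3 controls and 20.3 RPKM in the other 6. HSPA4 averaged 23.0 RPKM in these 3 and 55.5 RPKM in the other 6. The part of the detection gap in these levels was not tested.

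Around the members, 59 further genes of the folding network were taken as a list of co-chaperones, prefoldin, endoplasmic reticulum and mitochondrial folding genes, the unfolded protein response and regulators of HSF1. Of these, 56 were tested and 0 passed in limma. A fitted value above 0 was found for 26 and below 0 for 30, where 62.3% of all tested genes were above 0. After quantile normalization 30 were above and 26 below, where 55.0% of all tested genes were above. The median log2 difference of the 56 was -0.040 in the main fit, beside 0.11 for all tested genes. An unadjusted p under 0.05 was reached by 3 of the 56, namely FKBP4, DDIT3 and SIL1, where 7.35% of all tested genes reached it. FKBP4, an HSP90 co-chaperone of steroid receptors, had 65.5 to 88.9 RPKM in WNT5A libraries 4, 12 and 14, 5.49 to 12.7 in the other 5 and 4.92 to 12.5 in controls, with a log2 difference of 1.27 ± 0.47 (SE, limma adjusted p = 0.673). Without those 3 libraries it was 0.17, and the other 5 overlapped the controls. DDIT3, the stress transcription factor CHOP, averaged 24.0 ± 7.54 RPKM over the 8 WNT5A pools and 39.6 ± 20.2 over the 9 controls (SD), a log2 difference of -0.59 ± 0.28 (SE, limma adjusted p = 0.676) that became -0.69 without WNT5A libraries 4, 12 and 14. The difference of DDIT3 was -0.43 without control libraries 2, 3 and 6 and -0.53 without both sets of libraries. With the replicate number as a block it was -0.195. SIL1, which exchanges nucleotide on HSPA5, averaged 10.9 ± 4.66 RPKM over the 8 WNT5A pools and 18.0 ± 9.79 over the 9 controls (SD), a log2 difference of -0.66 ± 0.32 (SE, limma adjusted p = 0.676) that became -0.37 without those 3 WNT5A libraries and -0.21 without controls 2, 3 and 6 as well. The difference of SIL1 was larger, at -1.13, with the replicate number as a block. CHORDC1, an HSP90 co-chaperone, came next with a log2 difference of 0.35 ± 0.20 (SE, limma adjusted p = 0.707) that became 0.16 without the same 3 WNT5A libraries.

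Some low members had reads in few pools, or a far higher level in a single pool than in the others. DNAJB8, known from testis, had reads in 4 of 8 WNT5A pools, at up to 0.978 RPKM, and is listed at 0 in all 9 controls. In the authors' deposited table DNAJB8 had the smallest FDR of the members, 0.0723. DNAJB7 held 9.89 RPKM in control library 6 and at most 0.0660 RPKM in 1 WNT5A pool, with no read elsewhere. DNAJB13 held 4.02 RPKM in control library 2 and at most 0.656 RPKM in any other pool. HSPA12A, a distant relative of HSP70, held 9.20 RPKM in control library 3 and at most 1.39 RPKM elsewhere. HSPG2 averaged 3.18 ± 1.56 RPKM over the 8 WNT5A pools and 3.65 ± 2.34 over the 9 controls (SD), and HSPBAP1 had 1.32, 2.18 and 5.76 RPKM (lowest, median and highest) in WNT5A pools and 0, 1.54 and 3.61 RPKM in controls.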

How the data were processed

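RNA from 17 pools of 10 morulae (8 WNT5A, 9 control) was sequenced from stranded TruSeq mRNA libraries after RNeasy micro extraction, as the labels' protocols state. FastQC, HISAT2, featureCounts, edgeR and the assembly ARS-UCD1.2 come, with no version or setting, from the submitters' processing notes. What the authors deposited were RPKM values, 1 column per library and 2 of group means. Per the file headers, the deposited table also holds for every gene an exon length, a log2 fold change with its p-value and FDR, and the score of a likelihood ratio test. RPKM times length fell on whole multiples of 1 step per library for 100% of values (tolerance 0.001), which were taken as reads. Intervals are not given, and floors of 3 reads cover counting error only, as reads lacking molecular identifiers cannot be counted as independent molecules. The deposited starts and ends carry no chromosome, so no positions are printed. Gene neighbours came from a RefSeq table of ARS-UCD2.0, which held 86 of 87 member symbols.

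A count test had been planned for deposited counts. The deposited unit was RPKM, so that test was not run, although whole reads could be recovered as described above. Instead, log2(RPKM + 1) was fitted with limma 3.58.1 (R 4.3.3, two-sided tests, eBayes with its trend and robust settings on), a scale that understates changes of low genes. The fit held 12415 genes that reached 0.5 RPKM in 8 or more libraries, p was adjusted by Benjamini-Hochberg over all of them, and the code was tested on simulated data. Members, classes, lists and library sets were chosen with earlier results of these data known. Named genes were canonical members, the 20 most abundant, the 12 with the smallest p, those past the threshold or with groups that do not overlap, and the 4 smallest p of the folding network list. DNAJC6, HSPBP1, HSPA6, HSPA12A, DNAJB7, DNAJB8, DNAJB13, HSPA1L, CCT6B, DNAJA3, DNAJB9, DNAJB11, DNAJC3, HSPB6 and the genes named for their place in library sets were chosen after their values were seen. Python 3.11.15 with matplotlib 3.10.9 drew the plots. Numbers shared between groups were used as a block only in an alternative.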

Additional observations from a re-analysis of the deposited data

Results flagged for a closer look

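Among 62 described genes in 2 groups each, 14 single pools in 124 groups lay far from the rest of their group by Dixon's criterion. The chance rate of about 1 in 20 groups holds for normally distributed values only. DNAJB7, DNAJB13 and HSPA1L had no reads in most pools. For DNAJB7, with reads in 1 pool per group, the Dixon ratio is 1 by construction. The count of 14 can therefore not be set against that rate. Of members above a few RPKM, HSPB11 in WNT5A library 4 stood at 19.6 RPKM, with the next WNT5A pool at 4.83 RPKM. HSPA6 in control library 2 stood at 43.3 RPKM, with the next control at 8.85 RPKM. BAG2 in control library 3 stood at 85.4 RPKM and the next control at 54.0 RPKM, DNAJC19 in control library 6 at 193 RPKM and the next at 110 RPKM, and DNAJA1 in control library 4 at 145 RPKM, below the next at 185 RPKM. SIL1, of the folding network, stood at 40.7 RPKM in control library 6 and 22.9 RPKM in the next control.

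The other 8 were in low members. HSPA12A stood at 9.20 RPKM in control library 3, with the next control at 1.39 RPKM. HSPA1L stood at 1.88 RPKM in WNT5A library 4 (next WNT5A pool 0.357) and at 0.387 RPKM in control library 13 (next control 0.0413). DNAJB7 stood at 0.0660 RPKM in WNT5A library 11 and at 9.89 RPKM in control library 6, with 0 in all other pools. DNAJB8 stood at 0.978 RPKM in WNT5A library 7, with the next at 0.454 RPKM. DNAJB13 stood at 0.656 RPKM in WNT5A library 10 (next WNT5A pool 0.0629) and at 4.02 RPKM in control library 2 (next control 0.0236).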

How the results depend on the processing

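No member passed 0.05 under any of the 26 alternatives, of which 17 left out 1 library each (0 members past in limma, 1 to 9 at an unadjusted p under 0.05 beside 2.53% to 10.5% of all genes fitted, smallest adjusted p 0.435, without control library 9). The single gene that passed among all tested genes was lost (0 genes) with no filter, after quantile normalization, without control libraries 2, 3 and 6, without WNT5A libraries 4, 12 and 14, without all 6 and with the replicate number as a block, and leaving out 1 library gave 0 to 2 genes, with 2 without control library 5. The median of members stayed within 0.000324 to 0.14, and that of all tested genes was 0.22 with a pseudocount of 0.1. Members set apart above the other libraries numbered 6 and below them 1 after quantile normalization, an alternative chosen after seeing the data. The log2 change turned sign, in 28 refits of the 28 genes whose difference is given and kept it in 700, and the cause was not tested. Without all 6 libraries it was -0.0383 for HSP90B1, -0.112 for HSPA4, -0.382 for DNAJB2, -0.121 for HSP90AA1, -0.0216 for HSP90AB1, 0.0374 for HSPA1A, 0.0121 for HSPBP1, 0.0927 for HSPE1 and -0.0471 for BAG6. Without WNT5A libraries 4, 12 and 14 it was 0.0327 for HSF1, -0.0467 for HSP90AA1, 0.11 for HSPA1A and 0.29 for HSPBP1, and without control libraries 2, 3 and 6 it was 0.19 for HSPE1. With library quality weights it was -0.0329 for DNAJB2, -0.0351 for HSP90AA1 and 0.0338 for HSPE1, and after quantile normalization 0.0880 for HSPA8 and 0.0778 for HSPE1. The deviations from group means of libraries that share the numbers 1, 2, 4 and 10 correlated at 0.022 to 0.22, so the numbers were not taken as pairs. With the replicate block it was 0.0408 for HSPA1A, 0.0453 for HSPA8 and 0.0444 for HSPE1, with no member past the threshold. Leaving out 1 library gave -0.0389 to 0.0247 for HSPA8 and -0.187 to 0.0240 for HSPE1. With 34.0 to 52.4 M reads, WNT5A libraries 4, 12 and 14 limit what low members can show. Control libraries 2, 3 and 6 limit it too, with reads on 68 to 73 members against 79 to 83 in those WNT5A libraries.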
